A study of Mus musculus with 8 samples.

Results

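Myc, Ccnd1 and Cdkn1a are genes that control whether a fibroblast grows and divides, and the Foxk1 peaks around them were taken from a list made by chromatin immunoprecipitation and sequencing. Members were the peaks whose summit lay in a window set by coordinates on the mm9 mouse assembly. No measured value entered that rule, but the genes and windows were chosen with earlier results of these data known. The windows ran from 61.70 to 61.95 Mb on chromosome 15 for Myc, from 152.00 to 152.25 Mb on chromosome 7 for Ccnd1 and from 29.12 to 29.34 Mb on chromosome 17 for Cdkn1a. They held 19 of the 28933 peaks of the list: 13 in the Myc window, 1 in the Ccnd1 window and 5 in the Cdkn1a window. The series consisted of untreated mouse embryonic fibroblasts (MEFs) grown in DMEM, with 3 libraries precipitated with a Foxk1 antibody, 3 with IgG and 2 of input chromatin taken without an antibody. The list compares Foxk1 with input and gives 1 value per peak. It therefore allows no replicate error and no test over libraries, and enrichment that IgG would share cannot be told apart here. The labels give no strain, genotype, age or passage for the MEFs.

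Foxk1 is a forkhead transcription factor, which binds DNA through a winged-helix domain at sites with the core letters TAAACA. In mouse myogenic progenitor cells it is known as a brake on Cdkn1a. Myc is a transcription factor that pairs with Max and raises the genes of ribosome production and metabolism, and fibroblasts switch it on within the early response to serum. Ccnd1 is cyclin D1, the growth-factor-dependent cyclin that activates Cdk4 and Cdk6 to inactivate the retinoblastoma protein. Cdkn1a is p21, a cyclin-dependent kinase inhibitor that p53 induces and that stops the cell cycle.

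The gene positions used below, 61.816 Mb for Myc, 152.12 Mb for Ccnd1 and 29.23 Mb for Cdkn1a, came with the definition of the windows and not from an annotation of mm9. Distances are therefore approximate, to about 1 kb for Myc and to about 10 kb for the other two. An annotation or sequence of mm9 was not used here, so no peak is placed in an exon, intron or promoter. In the gene order of a RefSeq table for another assembly (GRCm38.p6), Myc lies beside the long noncoding RNA gene Pvt1, Ccnd1 lies between LTO1 and Gm46023, and Cdkn1a lies between Trp53cor1, the gene of lincRNA-p21, and Rab44. A peak in a window may thus lie closer to a gene other than the one the window is named for.

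The RefSeq promoter table held Cdkn1a among the 3 genes, with a pair of start sites on the plus strand of GRCm38.p6. The 250 bases before each start are shown because binding at the promoter itself would be sought there. They cover chr17:29090729-29090978 for the first start and chr17:29093519-29093768 for the second, coordinates that must not be set against the mm9 peaks. Capitals mark a CATG pair separated by 6 bases (CATGNNNNNNCATG, which reads the same on both strands), the spacing of the half-site cores in a p53 response element.
Cdkn1a, first start: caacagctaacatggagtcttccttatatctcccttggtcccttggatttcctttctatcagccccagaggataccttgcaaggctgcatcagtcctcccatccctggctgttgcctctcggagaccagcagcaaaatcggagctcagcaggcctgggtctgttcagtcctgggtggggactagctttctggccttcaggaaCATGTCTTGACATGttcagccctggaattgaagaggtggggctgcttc
Cdkn1a, second start: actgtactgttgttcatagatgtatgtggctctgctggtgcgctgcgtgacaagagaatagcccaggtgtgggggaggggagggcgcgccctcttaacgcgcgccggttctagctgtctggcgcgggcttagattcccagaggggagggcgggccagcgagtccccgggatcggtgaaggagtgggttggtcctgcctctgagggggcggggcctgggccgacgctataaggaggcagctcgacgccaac

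The CATG pair stood before the first start alone, and 0.49% of the 32851 mouse promoters in the table had one in the same 250 bases. The second sequence had a GC content of 64.8% and 19 CpG pairs, the first 54.0% and 2, against medians of 52.4% and 6 over all promoters. Neither of the forkhead words searched, GTAAACA and the shorter TAAACA that it contains, occurred on either strand of the 300 bases around the Cdkn1a starts (250 before and 50 after). Among all promoters of this length 3.65% held GTAAACA and 13.4% held TAAACA. Most promoters thus lack these letters, and their absence here says nothing on binding.

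The first question was how many Foxk1 peaks each gene window held relative to its chromosome. The Myc window was dense, the Cdkn1a window moderately so, and the Ccnd1 window held fewer peaks than its chromosome's average gives. The Myc window carried 52.0 peaks per Mb, against 16.7 over chromosome 15, a ratio of 3.12. At the density of the chromosome, 4.17 peaks would fall in a window of this width. The Cdkn1a window carried 22.7 peaks per Mb, against 13.4 over chromosome 17, a ratio of 1.70, or 5 peaks where the chromosome's density gives 2.94. The Ccnd1 window carried 4 peaks per Mb, against 6.19 over chromosome 7, a ratio of 0.65, or 1 peak where that density gives 1.55. With a single peak the last ratio depends on the width of the window: within 50 kb on either side of the Ccnd1 position it was 1.62.

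Peaks gather in some stretches of a chromosome, so an average hides how uneven windows are. Chromosome 15 was divided into 413 windows of 250 kb, of which 92 held no peak, the median held 3 and the fullest held 21. Of these windows 29, or 7.02%, held at least 13 peaks. Among the 610 windows of 250 kb on chromosome 7, 335 held no peak and 275, or 45.1%, held at least 1. Among the 432 windows of 220 kb on chromosome 17, 156 held no peak and 109, or 25.2%, held at least 5. The Myc window thus stood among the fuller windows of an already dense chromosome, whereas the Cdkn1a count was met by 1 window in 4 and the Ccnd1 count by nearly as many windows as not. Over chromosomes 1 to 19 and X together, 2.58% of windows of 250 kb held at least 13 peaks, 62.0% held at least 1, and 20.01% of windows of 220 kb held at least 5.

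**Figure D1:**
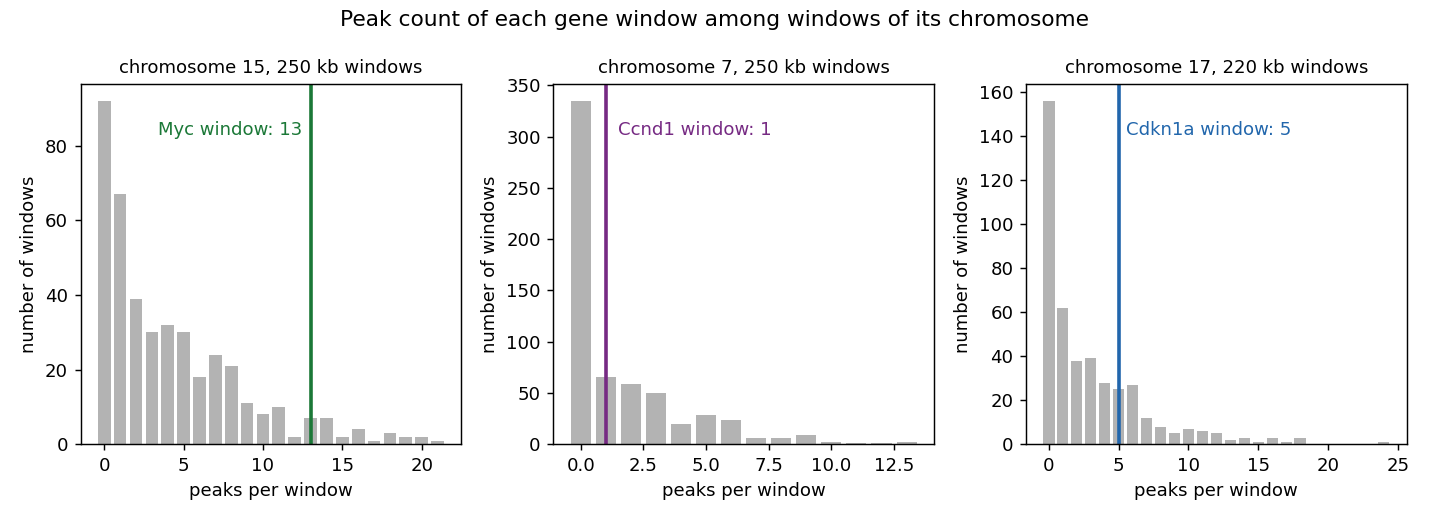
Number of windows (y axis) by the number of Foxk1 peaks they hold (x axis) on the chromosome of each gene, with a vertical line at the count of the gene window. The Myc line at 13 lies in the thin upper part of the distribution, and the lines of Ccnd1 at 1 and Cdkn1a at 5 lie in its body.

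The second question was how strong the peaks were. Strength is given by the authors' signal value for each peak, a score whose scale and unit are not stated, which in the whole list ran from 11.3 to 391 with a median of 17.8. The Myc window had a median signal value of 28.97, against 17.6 over chromosome 15, with a range of 11.8 to 128. This direction depended on the width of the window: the 5 peaks within 50 kb on either side of the Myc position had a median of 16.9, below that of the chromosome. The Cdkn1a window had a median of 23.9, against 18.1 over chromosome 17, and ranged from 13.2 to 30.5. The single Ccnd1 peak had 13.4, against a median of 18.0 over chromosome 7. Of the 13 Myc peaks, 3 had a signal value of 50 or more, as did 0 of 1 Ccnd1 peak and 0 of 5 Cdkn1a peaks. That limit was added after the values were seen, and it lies between Myc peaks of 42.9 and 53.9. The same limit was passed by 7.97% of all peaks, by 8.24% of those on chromosome 15, by 6.67% of those on chromosome 7 and by 8.41% of those on chromosome 17. At these shares a group of 5 peaks, or 1, often holds no such peak. The median of the whole list was reached by 7 of 13 Myc peaks, by 0 of 1 Ccnd1 peak and by 3 of 5 Cdkn1a peaks, against 50% of all peaks and 49.2%, 51.1% and 51.3% on chromosomes 15, 7 and 17. The number of Myc peaks above the list median was therefore near the background. The 7 that reached it began at 28.97, and no Myc peak lay between that value and 17.6.

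**Figure D2:**
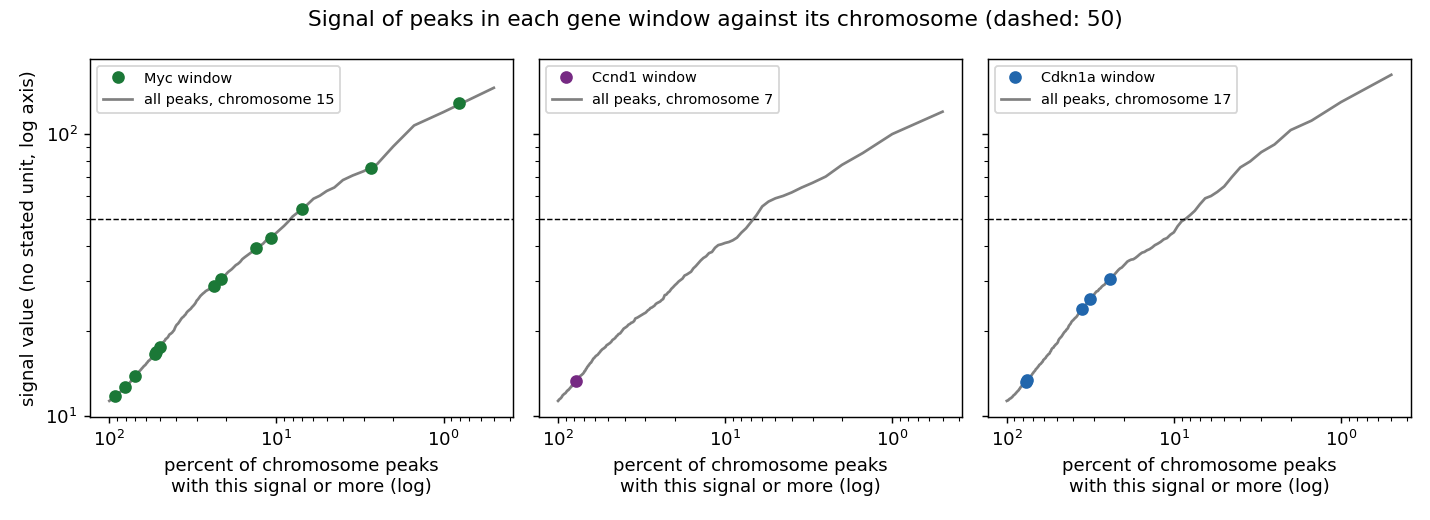
Signal value (y axis, log scale, no stated unit) against the percent of peaks on the chromosome with that signal value or more (x axis, log scale, reversed so that the strongest lie to the right). Coloured points are the peaks of each gene window, the grey curve is all peaks of its chromosome, and the dashed line marks 50. Myc peaks run from 11.8 to 128 with none between 17.6 and 28.97, and the Ccnd1 and Cdkn1a peaks stay below 31.

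At Myc, the strongest peaks lay not at the gene position but at higher coordinates, the side on which Pvt1 lies. The strongest, from 61859914 to 61860373, had a signal value of 128, rank 14 of the 1724 peaks on chromosome 15 and rank 210 in the whole list. Its summit lay 44.1 kb above the named Myc position. Next came the peak from 61880319 to 61880778, 64.5 kb above, with a signal value of 75.3 and rank 47 on the chromosome. The third, from 61875256 to 61875715 and 59.5 kb above, had 53.9 and rank 122. These 3 peaks shared the lowest q-value of the list, 0.00014, as did 12.3% of all peaks. They stood with 2 weaker peaks in a stretch of 22.5 kb, of which the one from 61857814 to 61858273 was the weakest of the window with a signal value of 11.8 (q = 0.00681) and the one from 61870343 to 61870802 had 17.6.

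Near the named Myc position the peaks were of middle or low strength. One ran from 61816489 to 61816948, with its summit 0.72 kb above, a signal value of 30.6 and a q-value of 0.000413. It ranked 371 on chromosome 15, and 21.5% of the peaks of the chromosome were as strong or stronger. A companion from 61814923 to 61815382, with its summit 0.85 kb below the position and 1566 bp from the first, had a signal value of 16.5 and rank 920. The third nearest, from 61830309 to 61830768, lay 14.5 kb above with a signal value of 16.9. Both of these weaker peaks were below the list median.

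The remaining Myc peaks lay farther out. A peak 95.2 kb above the position had a signal value of 39.3, and one 122 kb above had 42.9 with the lowest q-value. A pair with summits 345 bp apart, 128 kb above, had signal values of 28.97 and 12.6 and was the only pair of overlapping peaks among the 19 members. On the other side a single peak 89.0 kb below had 13.8, and 88.2 kb without a summit separated it from the next. In all, 11 of the 13 peaks lay above the named position and 2 below, in a window that extends farther above than below. The median distance between neighbouring summits was 7.94 kb in the window, against 19.3 kb over chromosome 15, and 8 of 13 had another summit within 5 kb, against 42.8% of the peaks of the chromosome. Another summit lay as close for 2 of 5 Cdkn1a peaks, against 44.5% on chromosome 17, and for 0 of 1 Ccnd1 peak, against 27.0% on chromosome 7. A window with more peaks per Mb tends to have closer summits, so the Myc spacing is not separate from its density.

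**Figure D3:**
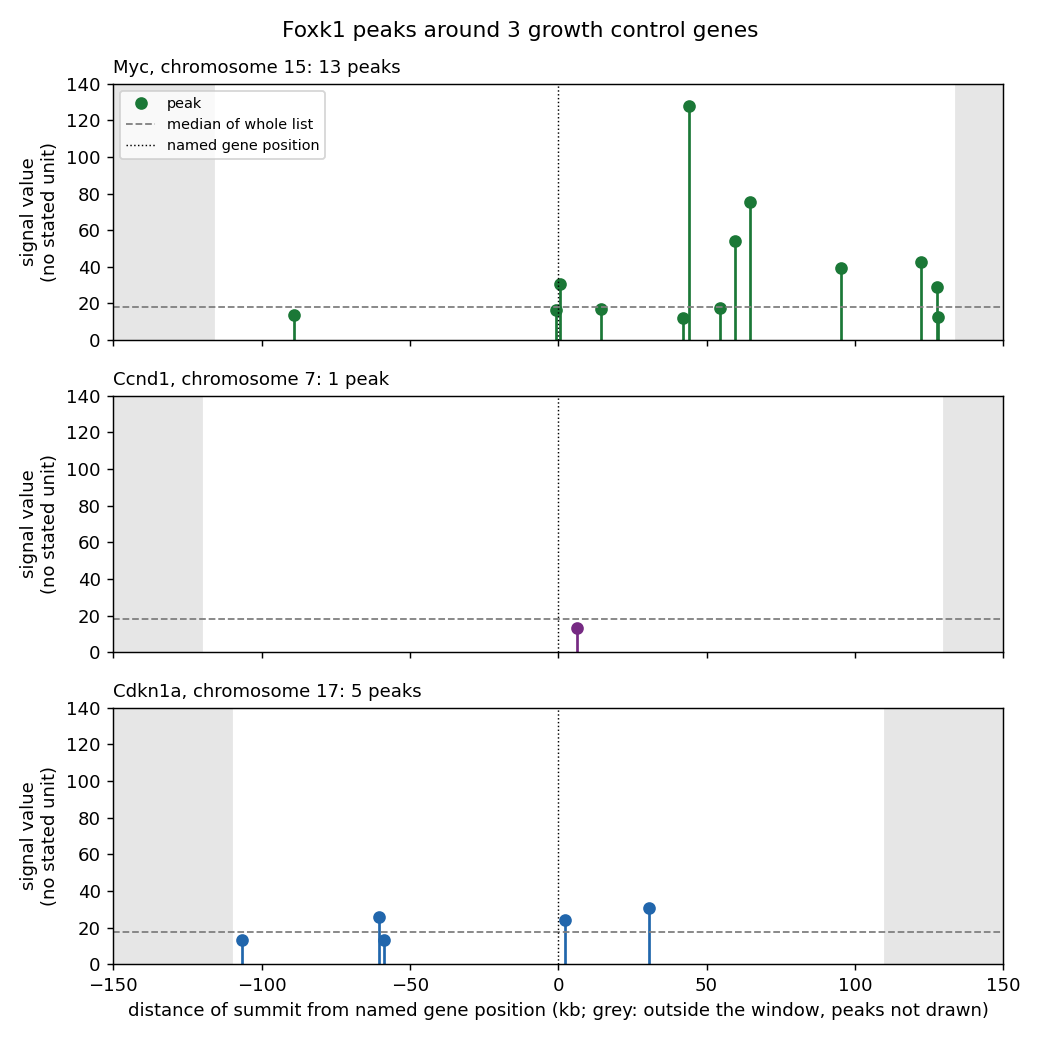
Signal value (y axis, no stated unit) of each peak against the distance of its summit from the named gene position (x axis, kb), with 1 panel per gene, the list median of 17.8 as a dashed line and the area outside each window in grey. Myc shows a middle peak of 30.6 at the position and the 3 highest peaks between 44.1 and 64.5 kb above it, Ccnd1 shows 1 low peak, and Cdkn1a shows 5 peaks of at most 30.5.

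The edge of the Myc window cuts through this group of peaks. The last peak inside, with a signal value of 12.6, lay 5.95 kb from the upper edge, and the first outside, with 59.0, lay 0.70 kb beyond it. The next 250 kb, from 61.95 to 62.2 Mb, held 20 peaks, of which 4 reached a signal value of at least 50, and the strongest of them had 147 at a summit of 62160015, 344 kb above the named Myc position. The 250 kb below the window held 3 peaks, the strongest with a signal value of 64.1. Of 16 neighbouring windows, 8 on either side, the counts ran from 1 to 20 with a median of 5.5, and 1 held at least as many peaks as the Myc window. At the lower edge the nearest peak outside lay 97.3 kb away, with a signal value of 13.1, and the nearest inside lay 27.0 kb away with 13.8.

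**Figure D4:**
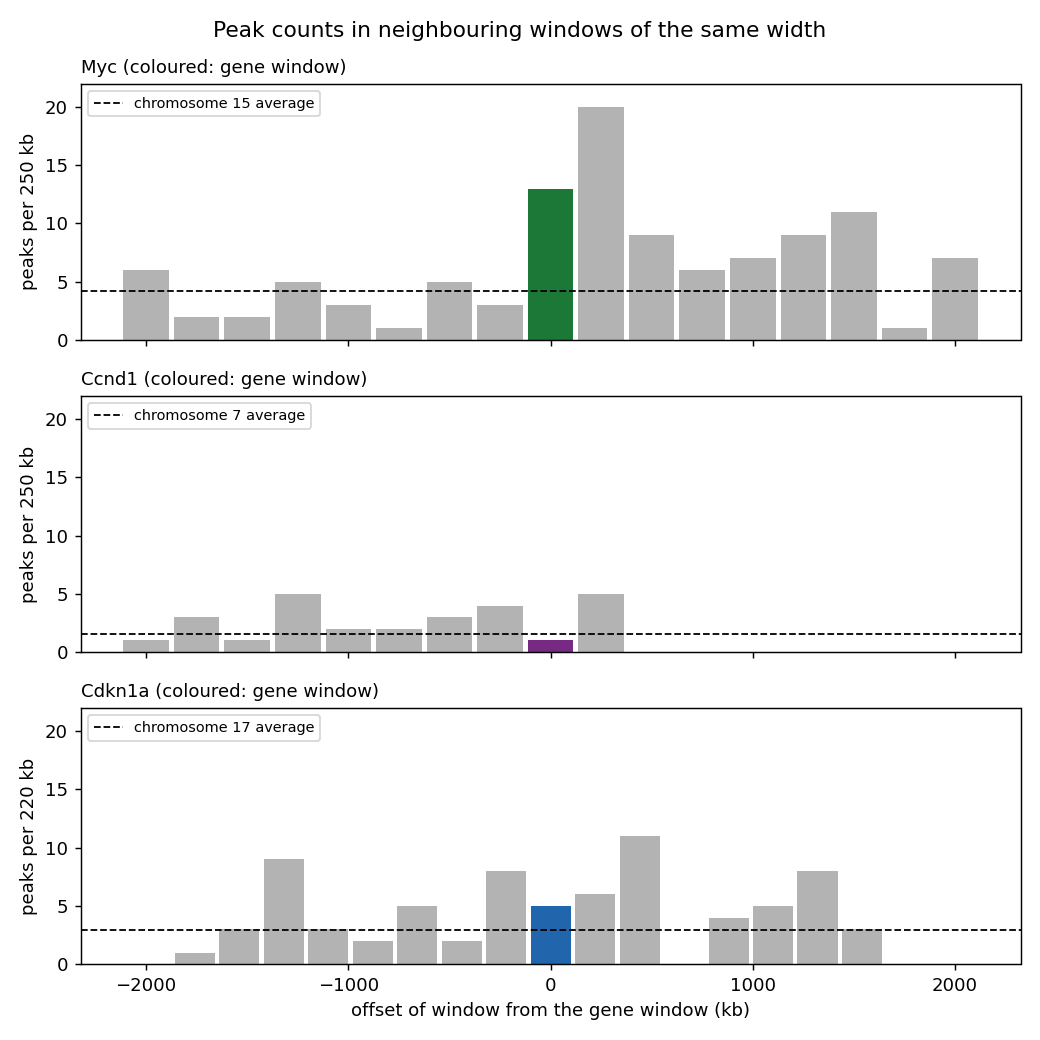
Number of Foxk1 peaks (y axis) in windows of the same width on either side of each gene window (x axis, offset in kb), with the gene window coloured and the average of the chromosome dashed. The Myc window with 13 peaks and the next one above with 20 form the highest part of its panel, the Ccnd1 window holds 1, and the Cdkn1a window with 5 lies between neighbours of 8 and 6. Full windows beyond the last peak of chromosome 7 do not exist.

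At Ccnd1, the 1 peak ran from 152126098 to 152126557, with its summit 6.33 kb above the named position. Its signal value was 13.4 and its q-value 0.00294. It ranked 738 of 944 on chromosome 7 and 21938 in the whole list, so that 78.2% of the peaks of the chromosome were as strong or stronger. It also had no close neighbour. The next summit below lay 193 kb away with a signal value of 16.4, and the next above lay 172 kb away with 11.6. Those peaks were outside the window by 66.2 and 47.8 kb. The median distance between neighbouring summits was 37.4 kb over chromosome 7, but 335 of its 610 windows of 250 kb held no peak. Long stretches without a peak were thus common on that chromosome. All 9 neighbouring windows compared, 8 below and 1 above, held at least 1 peak, with a median of 3 and at most 5.

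At Cdkn1a, 5 peaks of moderate or low strength lay on both sides of the gene position. The nearest, from 29232147 to 29232606, had its summit 2.38 kb above the position, a signal value of 23.9 and a q-value of 0.00049. It ranked 452 of 1273 on chromosome 17, and 35.5% of the peaks there were as strong or stronger. The strongest of the window ran from 29260486 to 29260945, 30.7 kb above, with a signal value of 30.5, a q-value of 0.000412 and rank 309. Next to it in strength was the peak from 29169222 to 29169681, 60.5 kb below the position, with 25.98 and rank 402. A weaker peak from 29171065 to 29171524, 58.7 kb below, lay 1843 bp from it and had 13.2. The last, from 29123022 to 29123481, lay 107 kb below and had 13.4. On this lower side the RefSeq gene order has Srsf3, Gm41556 and Trp53cor1, and no peak was assigned to any of them.

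The Cdkn1a peaks were spaced more widely than those of Myc, with a median of 37.3 kb between neighbouring summits, against 20.5 kb over chromosome 17. That median rests on 4 distances inside the window, whereas the chromosome's value is over all of its distances. A median distance and a mean density are unlike measures, so it is not set against the density ratio of 1.70. No summit lay between the strongest peak and one at 29405789, 145 kb farther up and 65.8 kb outside the window, with a signal value of 44.3. At the lower edge the last peak inside lay 3.25 kb from it with 13.4, and the nearest outside lay 30.6 kb away with 15.9. Of 16 neighbouring windows of 220 kb, 7 held at least 5 peaks, with a median of 3.5 and a highest count of 11.

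Each of the 3 genes had a peak within 10 kb of its named position, with signal values of 30.6 and 16.5 for Myc, 13.4 for Ccnd1 and 23.9 for Cdkn1a. The Ccnd1 and Cdkn1a positions are known only to about 10 kb, so a peak within that distance of the gene itself is not shown for them. For comparison, 22.3% of the 20 kb stretches on chromosome 15 held a peak, as did 9.70% on chromosome 7 and 17.6% on chromosome 17. These shares are over whole chromosomes and not over genes, and the 3 genes were chosen with earlier results of these data known, so the count of 3 is a description. The 2 Myc peaks were 0.72 and 0.85 kb from the position, a difference smaller than its precision, so which of them is nearer is not known. The Cdkn1a value lay between them, and the Ccnd1 value was the lowest of the 4. With 1 value per peak, whether these values differ beyond the error of the measurement could not be tested.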

How the data were processed

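Chromatin from MEFs was sequenced in 3 Foxk1, 3 IgG and 2 input libraries, grouped by the antibody label and, for input, by title. Reads were aligned to mm9 with Bowtie, per the submitters' processing notes, whose version the sources used here do not give. The authors deposited 1 peak list, named Foxk1 against input on mm9 per the file headers, with a signal value (a score of unstated scale) and a q-value on a linear scale, from 0.00014 to 0.00995, for each peak. Nor do those sources name the peak caller, its settings or any pooling of libraries. Every peak was 460 bp wide. Depth is unknown, so no counting interval is given.

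Peaks were assigned to a window by their summit, and positions are 1-based. Density was counted in peaks per Mb, with the highest peak end as the length of a chromosome. Windows of equal width were laid from the first base. Ranks are by signal value, from the highest. Every member peak was counted, and the 3 strongest and 3 nearest in each window were described by rule. The members, lists and windows were chosen with earlier results of these data known. The neighbouring windows, the 20 kb stretches, the CATG pair and the limit of 50 were added after values were seen. No p-value was computed, as the list has no value per library. Window counting and merging were tested on simulated peaks. Sequences are from RefSeq (GRCm38.p6), in which 1 of 3 genes matched. Python 3.11.15, numpy 2.4.6, scipy 1.17.1, pandas 2.3.3 and matplotlib 3.10.9 were used.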

Additional observations from a re-analysis of the deposited data

How the results depend on the processing

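Of 59 recomputed values, 39 stayed within 1.5 times the reported count or ratio, or within the interval or range of the reported median or share, and 20 moved. The intervals treat the peaks of a window, or the windows of a chromosome, as independent draws, which they are not. A median or share that stayed inside is therefore not shown to be stable. The medians of the Ccnd1 and Cdkn1a windows could not move. They were recomputed from the same peaks and judged by the range of those peaks, so they say nothing on stability. The count of peaks fell by construction with fewer peaks or narrower windows. In the Myc window it was 7 at or above the list median, 8 at a q-value of at most 0.001, 5 within 50 kb on either side and 3 at a signal value of at least 50. In the Ccnd1 window it was 0 under each of the 3 stricter limits, and in the Cdkn1a window 3 under the first pair, 2 within 50 kb and 0 at 50. The Myc density ratio of 3.12 became 8.73 at a signal value of at least 50 and 4.74 against all autosomes and X. It lay between 2.996 and 3.83 under the other alternatives. The value of 8.73 rests on 3 peaks and on a limit added after values were seen. The Myc median signal value of 28.97 became 16.9 within 50 kb, below the chromosome's 17.6. It stayed inside the interval of the reported median, but that interval was made from the same Myc peaks. Those peaks share a locus and are not replicates, so staying inside it says nothing on stability. The Ccnd1 ratio of 0.65 became 0 under each stricter limit, 0.36 against all autosomes and X, and 1.62 within 50 kb, so that its side of 1 was not stable. With no Ccnd1 peak at or above the list median, 100% of windows held at least as many. The Cdkn1a ratio became 0 at a signal value of at least 50 and lay between 1.496 and 2.07 under the other alternatives. No paired analysis was possible because the list holds no value per replicate, and for the same reason no replicate could be left out. With unknown depth, few peaks at Ccnd1 means few detected at this threshold, not that Foxk1 was absent.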

Other observations

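Other genes of growth control could not be given peaks without an mm9 annotation, so only their promoter letters are described. A list of 26 genes covered the Myc network, cyclins, kinases, retinoblastoma and E2f proteins of the G1 phase, further kinase inhibitors, and Trp53 with its inhibitor Mdm2. It matched 22 genes with 27 promoters in the RefSeq table. GTAAACA or its reverse complement TGTTTAC occurred in 2 of these promoters (7.41%), those of Ccnd3, a second D-type cyclin, and Mdm2, against 3.65% of all promoters. The shorter TAAACA, which the longer word contains, occurred in 4 (14.8%), adding Cdkn1b, the kinase inhibitor p27, and Mxd1, a Max partner that opposes Myc, against 13.4% of all promoters. A share of 4 in 27 was near the background, and 2 promoters are too few to set the longer word apart from it.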
